A study of Homo sapiens with 16 samples.

Results

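The genes described here metabolize androgens. They were chosen by name from 60605 gene identifiers of the series: 4 UDP-glucuronosyltransferases that the selection lists as repressed by androgen (UGT2B15, UGT2B17, UGT2B11 and UGT2B28) and 5 androgen-metabolizing enzymes (SRD5A1, SRD5A3, HSD17B4, HSD17B10 and HSD17B11). All 9 were present in both count tables. PRO-seq, which labels the RNA that polymerases are making in isolated nuclei, gave the nascent RNA of LNCaP cells. LNCaP is an established line from a human prostate cancer and expresses the androgen receptor. The study asked whether the androgen receptor acts on DNA damage response genes, and used enzalutamide, an antagonist of that receptor, and ionizing radiation (IR).

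There were 6 groups in 2 batches, all from the same cell line grown in medium with serum. In batch 1, mock cells were compared with cells given 6 Gy IR, with replicate numbers 1 and 2 in each group, and each replicate has a t1 and a t2 library. The labels name no vehicle and no time for these cells. In batch 2, cells received DMSO vehicle for 90 min, vehicle for 30 min and then 6 Gy IR with 60 min of further incubation, 10 µM enzalutamide for 90 min, or 10 µM enzalutamide for 30 min and then 6 Gy IR with 60 min of further incubation, with replicate numbers 3 and 4 in each group. No labels say whether replicates came from separate cultures, so the p-values measure the spread between these samples, which may be technical. The growth medium held serum, and no group was labelled as deprived of androgen or given it.

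UDP-glucuronosyltransferases of the UGT2B family attach glucuronic acid to steroids, which ends their action on the receptor and makes them soluble for excretion. UGT2B15 and UGT2B17 are the main enzymes that conjugate dihydrotestosterone and its metabolites in prostate cells, and androgen is known to lower their expression in LNCaP. The 5α-reductases make dihydrotestosterone from testosterone, and the 17β-hydroxysteroid dehydrogenases interconvert active and inactive steroids at carbon 17, although several members of both families act mainly on lipids or other substrates.

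UGT2B15 passed the test after IR when vehicle and enzalutamide cells were averaged, a comparison added after seeing the data. It did not pass in the main fit of any planned comparison. UGT2B11 is a near relative of UGT2B15 with far less signal, and HSD17B11 was lower after IR in every numbered pair, as UGT2B15 was. The start regions of UGT2B15, UGT2B11 and HSD17B11 are shown. Each is the RefSeq window on GRCh38.p14 from 250 bases before to 50 bases after an annotated start, 5′ to 3′ on the gene's strand, which is the minus strand in each. They lie at chr4:68670603-68670902 (UGT2B15), chr4:69214699-69214998 (UGT2B11, at a start inside the annotated gene) and chr4:87391139-87391438 (HSD17B11). Capitals mark the androgen receptor half-site AGAACA and the forkhead motif TGTTTAC, on either strand, and only the UGT2B15 window has them.
UGT2B15: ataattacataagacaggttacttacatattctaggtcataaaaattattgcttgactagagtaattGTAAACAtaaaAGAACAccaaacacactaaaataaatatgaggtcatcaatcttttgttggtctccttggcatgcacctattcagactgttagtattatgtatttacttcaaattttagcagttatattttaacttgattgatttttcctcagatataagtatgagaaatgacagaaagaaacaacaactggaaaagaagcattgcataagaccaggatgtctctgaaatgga
UGT2B11: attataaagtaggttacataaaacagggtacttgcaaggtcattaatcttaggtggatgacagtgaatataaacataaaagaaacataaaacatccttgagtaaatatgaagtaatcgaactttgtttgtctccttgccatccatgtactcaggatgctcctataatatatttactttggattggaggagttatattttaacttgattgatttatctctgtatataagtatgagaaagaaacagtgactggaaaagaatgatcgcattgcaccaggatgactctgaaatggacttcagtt
HSD17B11: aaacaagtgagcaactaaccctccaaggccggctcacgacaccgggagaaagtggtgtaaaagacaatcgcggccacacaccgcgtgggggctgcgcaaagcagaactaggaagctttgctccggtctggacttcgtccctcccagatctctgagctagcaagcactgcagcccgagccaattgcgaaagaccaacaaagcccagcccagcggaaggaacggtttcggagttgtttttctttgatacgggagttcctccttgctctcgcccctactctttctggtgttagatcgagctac

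RefSeq windows were found for 7 of the 9 genes, UGT2B17 and UGT2B28 not among them. Of these 7, UGT2B15 alone held the half-site, at bases -172 to -167 from the start on the gene's strand, and it alone held the forkhead motif, at bases -183 to -177 on the other strand. The motifs do not overlap. Among 35116 windows of the same length, 14.8% held the half-site and 3.42% the forkhead motif on either strand, and 1 held the full androgen response element (2 half-sites facing each other, 3 bases apart). The UGT2B15 and UGT2B11 windows had the same base at 226 of 280 aligned positions (80.7%). These are matches of letters in a window, with no binding measured.

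Total counts per library were between 3438642 and 9363458 in batch 1 and between 10494563 and 19905824 in batch 2. After t1 and t2 of a replicate were summed, the 12 replicates held 8022989 to 19905824 counts. All 10 luminal and LNCaP marker genes passed the filter on low counts in both batches, and their summed level in CPM (counts scaled to an equal library size) was 2600 to 3520 over the 12 replicates. The 4 immune markers failed the filter in both batches, with sums of 1.27 to 2.23 CPM, and the 4 hepatocyte markers, from the other main site of UGT2B expression, summed to 5.93 to 17.7 CPM. The 3 endothelial markers, which all passed the filter in both batches, summed to 15.5 to 36.6 CPM. The 3 neuroendocrine markers summed to 4.98 to 17.1 CPM and the 4 basal markers to 4.5 to 9.25 CPM. KLK3, which encodes prostate-specific antigen, was at 181 and 178.2 CPM in the mock replicates of batch 1 but at 17.1 and 13.48 CPM in the vehicle replicates of batch 2. The summed level of the 5 stromal markers was 32.3 to 33.6 CPM after IR and 17.9 to 21.3 in mock cells of batch 1, 17.6 to 21.9 and 14.3 to 17.3 CPM with vehicle, and 17.4 to 20.7 and 14.3 to 14.9 CPM with enzalutamide. Of the 4 tested in batch 2, ACTA2, a smooth muscle actin gene, rose after IR averaged over enzalutamide by 1.24 on the log2 scale (SE 0.135, edgeR adjusted p = 5.22e-05), and the other 3 did not pass, with COL1A1 at -0.18, DCN at -0.63 and COL1A2 at 0.31. The median of the 10 luminal markers in the same comparison was -0.18, with 8 of 10 below 0 and 1 of 10 lower past the threshold. The part of either list in the IR results was not tested. CDKN1A, a p53 target that IR is known to induce, rose after IR by 3.02 on the log2 scale in vehicle cells (SE 0.174, edgeR adjusted p = 5.5e-07) and by 3.65 in batch 1 (SE 0.152, edgeR adjusted p = 1.52e-07). In batch 1, t1 and t2 libraries gave log2 fold changes after IR of opposite sign for most of the genes described here. The log2 fold changes of batch 1 are therefore given below for both together and for each.

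Among the UGT2B genes, UGT2B17 carried most of the signal, with 60.3% of all counts on 12 UGT2B genes and pseudogenes, followed by UGT2B15 with 25.5%. UGT2B7, which is not among the 9 genes, had 5.24%, UGT2B11 had 1.36% and UGT2B28 had 0.889%, and UGT2B10 was listed at 0 in every library. These genes lie in 1 cluster on chromosome 4 and are close in sequence, and the handling of reads that map to several of them is not given in the sources used here, so the split of counts among them is uncertain. In mock cells UGT2B17 was at 8.001 and 15.15 CPM, and in irradiated cells of batch 1 at 6.313 and 11.74 CPM. In batch 2 it was at 43.97 and 36.08 CPM with vehicle, 34.28 and 26.53 with vehicle and IR, 44.47 and 27.63 with enzalutamide, and 28.91 and 23.52 with enzalutamide and IR. The irradiated replicates were below both of their controls with vehicle, as for 22.8% of all genes, while in batch 1 and with enzalutamide the groups overlapped.

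UGT2B15 was at 4.376 and 12.19 CPM in mock cells and at 4.183 and 9.043 CPM in irradiated cells of batch 1. In batch 2 it was at 15.78 and 14.2 CPM with vehicle, 11.66 and 10.78 with vehicle and IR, 17.15 and 12.51 with enzalutamide, and 10.61 and 10.87 with enzalutamide and IR. All 4 irradiated replicates of batch 2 were below all 4 that were not irradiated, as for 5.41% of all genes. In batch 1 the spread between replicates 1 and 2 was larger than the difference between the groups, for UGT2B15 and for UGT2B17. The ratio of UGT2B17 to UGT2B15 counts was 1.24 to 1.83 in the replicates of batch 1 and 2.16 to 2.94 in those of batch 2, so the 2 batches did not overlap in it.

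UGT2B11 and UGT2B28, which glucuronidate steroids and fatty acid derivatives, were near the limit of detection. UGT2B11 had 2 to 27 counts per replicate and a level of 0.25 to 1.39 CPM, and it passed the filter on low counts in batch 2 only. UGT2B28 had 1 to 11 counts per replicate and 0.1205 to 1.02 CPM, passed the filter in neither batch and was not tested. Differences of the size seen for UGT2B15 were not detectable at this depth for either gene.

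**Figure D1:**
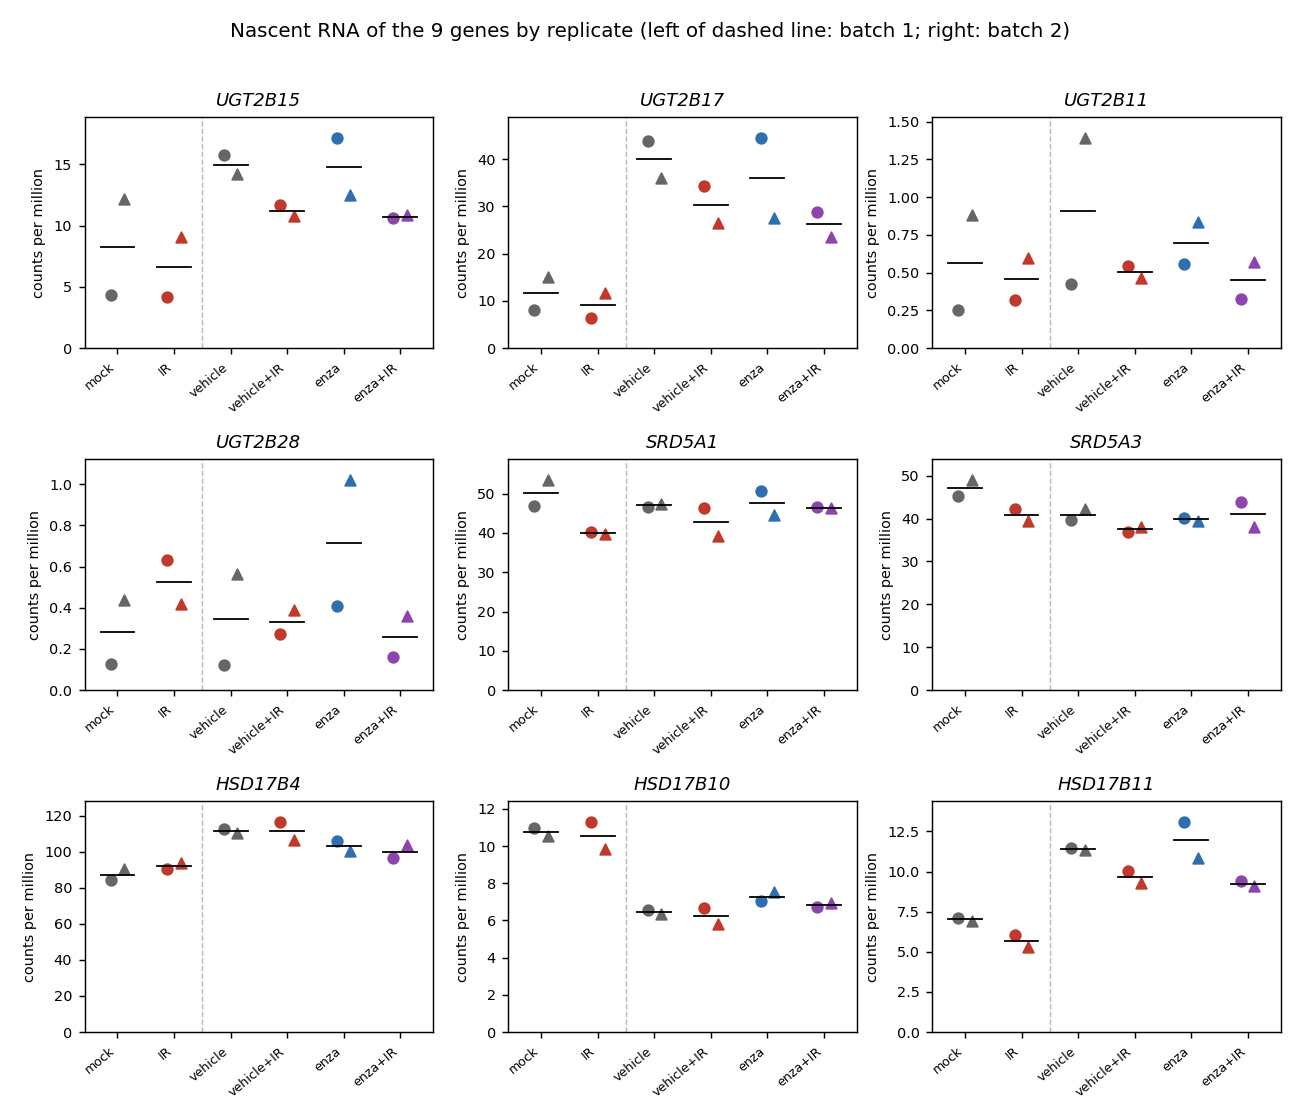
Nascent RNA of the 9 genes in CPM (y axis, from 0) by group (x axis); each point is 1 replicate (circles for replicates 1 and 3, triangles for 2 and 4) and each bar the mean of 2. All batch 1 points of UGT2B17, HSD17B4 and HSD17B11 lie below those of batch 2, and the irradiated batch 2 points of UGT2B15 and HSD17B11 lie below those not irradiated.

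SRD5A1, a 5α-reductase that makes dihydrotestosterone in prostate cancer cells, was at 46.88 and 53.46 CPM in mock cells and at 40.33 and 39.77 CPM after IR in batch 1, without overlap. In batch 2 it was at 46.74 and 47.45 CPM with vehicle, 46.48 and 39.33 with vehicle and IR, 50.58 and 44.68 with enzalutamide, and 46.57 and 46.39 with enzalutamide and IR. SRD5A3, which reduces polyprenol for protein glycosylation and was first described as a 5α-reductase, was at 45.26 and 48.96 CPM in mock cells and at 42.22 and 39.53 CPM after IR in batch 1. Over the 8 replicates of batch 2, SRD5A3 lay between 36.94 and 43.82 CPM. For both genes the IR group lay below its controls in batch 1, as for 19.7% of all genes, and with vehicle, and overlapped them with enzalutamide.

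HSD17B4, a peroxisomal enzyme of fatty acid oxidation that also oxidizes estradiol, was at 112.6 and 110.6 CPM with vehicle, 116.5 and 106.6 with vehicle and IR, 106.2 and 100.4 with enzalutamide, and 96.46 and 103.9 with enzalutamide and IR. All 4 replicates with enzalutamide were below all 4 without it, as for 1.24% of all genes. In batch 1 HSD17B4 was at 84.14 and 90.24 CPM in mock cells and at 90.68 and 93.79 CPM after IR, higher without overlap, as 20.3% of all genes were. HSD17B10, a mitochondrial dehydrogenase that is also a subunit of mitochondrial RNase P, was at 6.565 and 6.33 CPM with vehicle, 6.679 and 5.818 with vehicle and IR, 7.022 and 7.509 with enzalutamide, and 6.723 and 6.934 with enzalutamide and IR, so that all 4 replicates with enzalutamide were above all 4 without it, as for 1.35% of all genes. In batch 1 HSD17B10 was at 11 and 10.54 CPM in mock cells and at 11.29 and 9.822 CPM after IR. HSD17B11, a dehydrogenase of lipid droplets that can oxidize androstanediol, was at 7.126 and 6.916 CPM in mock cells and at 6.077 and 5.33 CPM after IR in batch 1. In batch 2 HSD17B11 was at 11.44 and 11.32 CPM with vehicle, 10.02 and 9.308 with vehicle and IR, 13.08 and 10.85 with enzalutamide, and 9.395 and 9.078 with enzalutamide and IR. In HSD17B11 no irradiated replicate reached a control of its own batch. Of all genes, 19.7% were lower after IR without overlap in batch 1 and 5.41% in batch 2 (4 against 4). The share for both batches at once was not computed. Within enzalutamide cells (2 against 2) the share was 19.5%.

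Levels can be compared between genes only per length, here as CPM per kb of the RefSeq gene span. In vehicle cells HSD17B10 was highest at 2.07 ± 0.0532 (SD, n = 2), followed by SRD5A3 at 1.52 ± 0.0661, HSD17B4 at 1.24 ± 0.0151, SRD5A1 at 1.15 ± 0.0123, UGT2B17 at 1.02 ± 0.142, UGT2B15 at 0.623 ± 0.0463, HSD17B11 at 0.208 ± 0.00156, UGT2B11 at 0.0362 ± 0.0273 and UGT2B28 at 0.0236 ± 0.0216 CPM per kb. SRD5A1 and UGT2B17 differed by less than the SD of UGT2B17, and UGT2B11 and UGT2B28 by less than either SD. Whether the counts cover introns is not given in the sources used here. Over 13113 protein-coding genes the count rose weakly with gene span (Spearman rho 0.275, across genes, which are not independent replicates), so values per kb of a short gene such as HSD17B10 and a long one such as HSD17B4 are uncertain relative to each other.

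Each of UGT2B15, UGT2B17 and HSD17B11 was lower after IR in 6 of 6 pairs of same-numbered replicates. Of these pairs, 2 were in batch 1 (t1 and t2 summed), 2 with vehicle and 2 with enzalutamide. Batch 1 has only 1 pair of groups to check its replicate numbers. Its groups overlapped for UGT2B15 and UGT2B17, so their pairs there depend on the numbering. Of the 25370 genes that passed the filter in both batches, 7.58% were lower in all 6 pairs and 10.2% higher in all 6. SRD5A1 and SRD5A3 were lower in 5 of 6 pairs, UGT2B11, UGT2B28 and HSD17B10 in 4 of 6, and HSD17B4 in 2 of 6. In t1 alone the 3 genes were lower in both pairs of batch 1, but in t2 alone, scaled to total counts, HSD17B11 went from 6.76 to 6.81 and from 5.3 to 7.05 CPM, UGT2B15 went from 3.71 to 4.61 in replicate 1 and UGT2B17 from 13.4 to 13.6 in replicate 2. After IR averaged over enzalutamide, UGT2B15 was the gene of the 9 that passed the test.

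**Figure D2:**
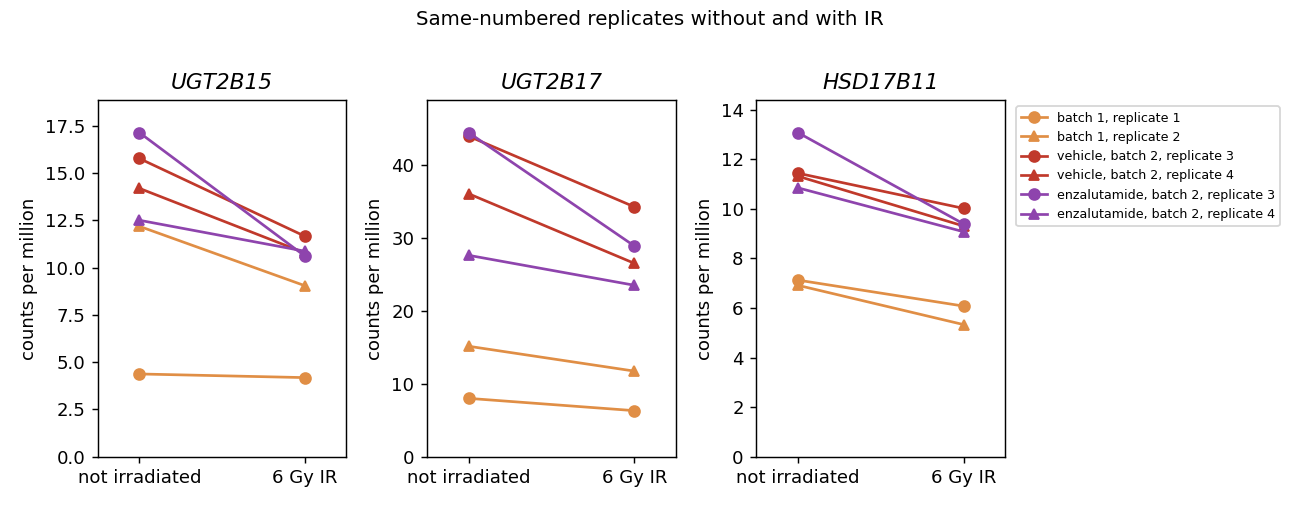
Nascent RNA in CPM (y axis, from 0) of UGT2B15, UGT2B17 and HSD17B11 without and with 6 Gy IR (x axis); each line joins replicates of the same number, in orange for batch 1, red for vehicle and purple for enzalutamide. All 6 lines fall in each panel, least steeply for UGT2B15 in replicate 1 (4.376 to 4.183 CPM).

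In vehicle cells the log2 fold change after IR was -0.42 for UGT2B15 (SE 0.164, edgeR adjusted p = 0.368), -0.39 for UGT2B17 (SE 0.196, edgeR adjusted p = 0.483) and -0.23 for HSD17B11 (SE 0.152, edgeR adjusted p = 0.584). In enzalutamide cells it was -0.48 for UGT2B15 (SE 0.167, edgeR adjusted p = 0.354), -0.48 for UGT2B17 (SE 0.2, edgeR adjusted p = 0.465) and -0.39 for HSD17B11 (SE 0.155, edgeR adjusted p = 0.445). Of the 8 genes tested, 0 passed the threshold of 0.05 on the adjusted p in vehicle cells, where 1.1% of all genes did, or in enzalutamide cells, where 0.918% did. At an unadjusted p under 0.05 there were 1 and 3 of the 8 genes, beside 11% and 9.49% of all genes, and DESeq2 called 0 in either comparison. The median log2 fold change of the 8 genes was -0.18 in vehicle cells and -0.23 in enzalutamide cells, beside -0.0057 and -0.0139 over all 28651 genes tested.

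Replicates of the same number deviated together in batch 2, and with the replicate number as a block UGT2B17 passed the test in both settings. Its log2 fold change after IR was then -0.40 in vehicle cells (SE 0.0984, edgeR adjusted p = 0.0146) and -0.46 in enzalutamide cells (SE 0.103, edgeR adjusted p = 0.00941). With the block, 4.59% of all genes passed in vehicle cells and 3.32% in enzalutamide cells. UGT2B15 had adjusted p = 0.0762 and 0.0616 in the same edgeR fits.

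Averaged over vehicle and enzalutamide (4 irradiated against 4 other replicates, a comparison added after seeing the data), UGT2B15 fell by 0.45 on the log2 scale, to 0.732 of its level (95% interval 0.622 to 0.861, SE 0.109, edgeR adjusted p = 0.0314). It was 1 of 8 genes past the threshold, which 4.71% of all genes passed, and DESeq2 also called UGT2B17 (adjusted p = 0.0289). UGT2B17 was at 0.739 of its level (95% interval 0.606 to 0.901, edgeR adjusted p = 0.0788) and HSD17B11 at 0.807 (95% interval 0.693 to 0.94, edgeR adjusted p = 0.101). With the replicate block all 3 passed, where 15% of all genes did: UGT2B17 fell by 0.43 (SE 0.0676, edgeR adjusted p = 1.18e-04), UGT2B15 by 0.45 (SE 0.0919, edgeR adjusted p = 0.002) and HSD17B11 by 0.31 (SE 0.0942, edgeR adjusted p = 0.0304).

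The call of UGT2B15 without the block depended on the samples. It was lost on leaving out any 1 of 6 of the 8 replicates, namely vehicle replicate 3, either replicate of vehicle with IR, enzalutamide replicate 3 and either replicate of enzalutamide with IR, with the adjusted p between 0.0671 and 0.119 and the log2 fold change between -0.48 and -0.34. For UGT2B17, which edgeR called without the filter on low counts (adjusted p = 8.29e-05) but not with it, leaving out enzalutamide replicate 3, the highest of all, moved the log2 fold change from -0.44 to -0.28 (edgeR adjusted p = 0.167), and leaving out enzalutamide replicate 4 gave -0.54 (edgeR adjusted p = 0.00802). Counted as 1 gene, since reads may be split between them, the 4 UGT2B genes fell by 0.45 on the log2 scale (SE 0.11, edgeR adjusted p = 0.0338). Their sum did not pass after IR in vehicle cells (edgeR adjusted p = 0.375), in enzalutamide cells (0.345), in batch 1 (0.81) or in both batches (0.292). It also did not pass for enzalutamide and IR together against vehicle (edgeR adjusted p = 0.106).

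**Figure D3:**
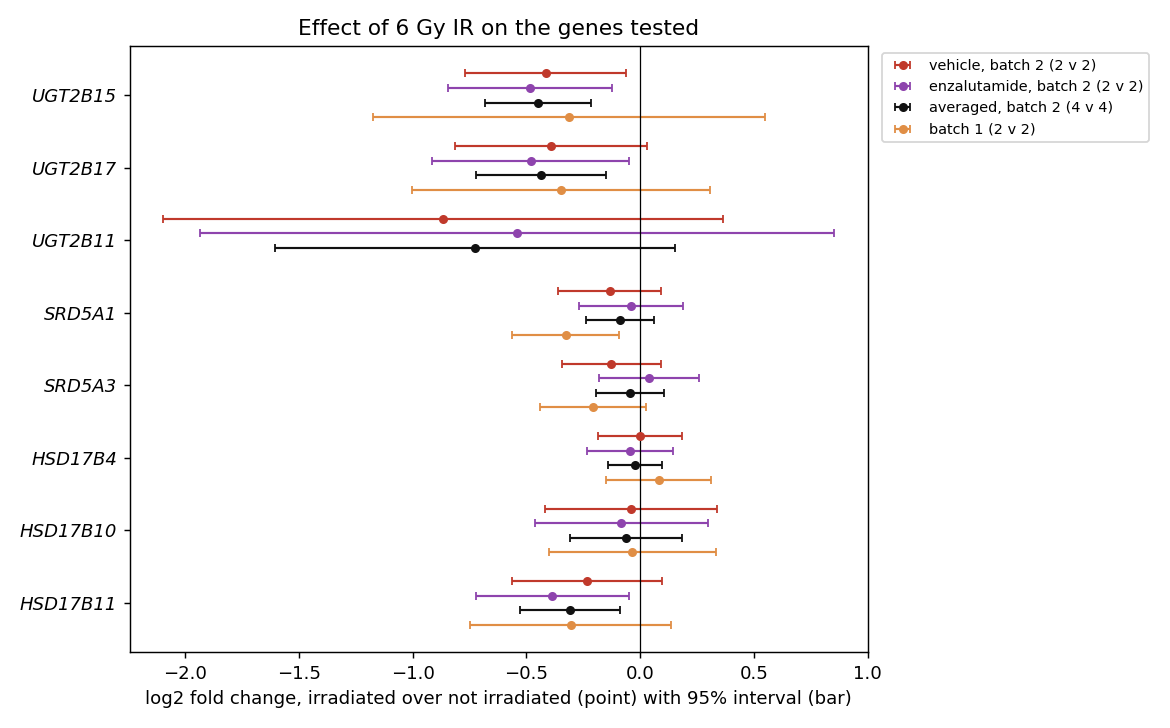
Log2 fold change of each tested gene after 6 Gy IR (x axis; points, with 95% intervals as bars) in vehicle cells, in enzalutamide cells, averaged over both, and in batch 1; UGT2B11 was not tested in batch 1. The averaged interval lies below 0 for UGT2B15 (-0.68 to -0.22), UGT2B17 (-0.72 to -0.15) and HSD17B11 (-0.53 to -0.09), and includes 0 for the other 5 genes.

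The other 5 tested genes did not pass in any of these fits. Averaged over enzalutamide, the log2 fold change after IR was -0.09 for SRD5A1 (95% interval -0.24 to 0.06), -0.05 for SRD5A3 (-0.19 to 0.10), -0.02 for HSD17B4 (-0.14 to 0.10) and -0.06 for HSD17B10 (-0.31 to 0.18). These intervals were narrower than that of UGT2B11, which ran from -1.60 to 0.15. Among those of SRD5A1, SRD5A3, HSD17B4 and HSD17B10, the HSD17B10 interval was the widest. In a bulk sample, fewer cells that transcribe a gene and less transcription per cell cannot be told apart.

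In batch 1, 0 of 7 genes tested passed after IR, where 2.82% of all genes did (1 of 7 at an unadjusted p under 0.05, beside 11.5% of all genes, DESeq2 0). The log2 fold change was -0.33 for SRD5A1 (SE 0.109, edgeR adjusted p = 0.195), -0.35 for UGT2B17 (SE 0.301, edgeR adjusted p = 0.76), -0.31 for UGT2B15 (SE 0.396, edgeR adjusted p = 0.86) and -0.31 for HSD17B11 (SE 0.203, edgeR adjusted p = 0.662). With the replicate block 1 of 7 genes passed, where 2332 of 25889 genes did, as given in the closing section. The libraries t1 and t2 of the same replicates went against each other. In t2 alone 4 of 7 genes passed, where 44.7% of all genes did: HSD17B4 rose by 0.58 (SE 0.111, edgeR adjusted p = 9.33e-04), and SRD5A3 fell by 0.60 (SE 0.125, edgeR adjusted p = 0.00162), HSD17B10 by 0.65 (SE 0.215, edgeR adjusted p = 0.0253) and SRD5A1 by 0.32 (SE 0.115, edgeR adjusted p = 0.0383). UGT2B15 was at 0.18, UGT2B17 at 0.12 and HSD17B11 at 0.29 in t2 alone.

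In t1 alone the log2 fold change was -0.36 for HSD17B4, 0.17 for SRD5A3, 0.51 for HSD17B10, -0.32 for SRD5A1, -0.70 for UGT2B15, -0.77 for UGT2B17 and -0.90 for HSD17B11. None of the 7 passed, where 17.3% of all genes did (edgeR adjusted p between 0.0564 for HSD17B11 and 0.473 for SRD5A3). SRD5A1 was therefore lower in both kinds of library, and the other 6 genes had opposite signs. Over all genes, 3995 of 23134 passed in t1 alone and 9800 of 21930 in t2 alone, against 731 of 25889 when both were summed. What sets t1 apart from t2, and whether they mean the same in mock and irradiated cells, is not given in the sources used here. Mitochondrially encoded genes held 4.246% and 5.06% of counts in mock t1 and 3.243% and 3.937% in mock t2. After IR they held 2.867% and 2.857% in t1 and 5.377% and 4.47% in t2, so the order of t1 and t2 was reversed. If t1 and t2 do not mean the same in both groups, the values of t1 alone and of t2 alone do not compare like with like. The part of this in the result was not tested.

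**Figure D4:**
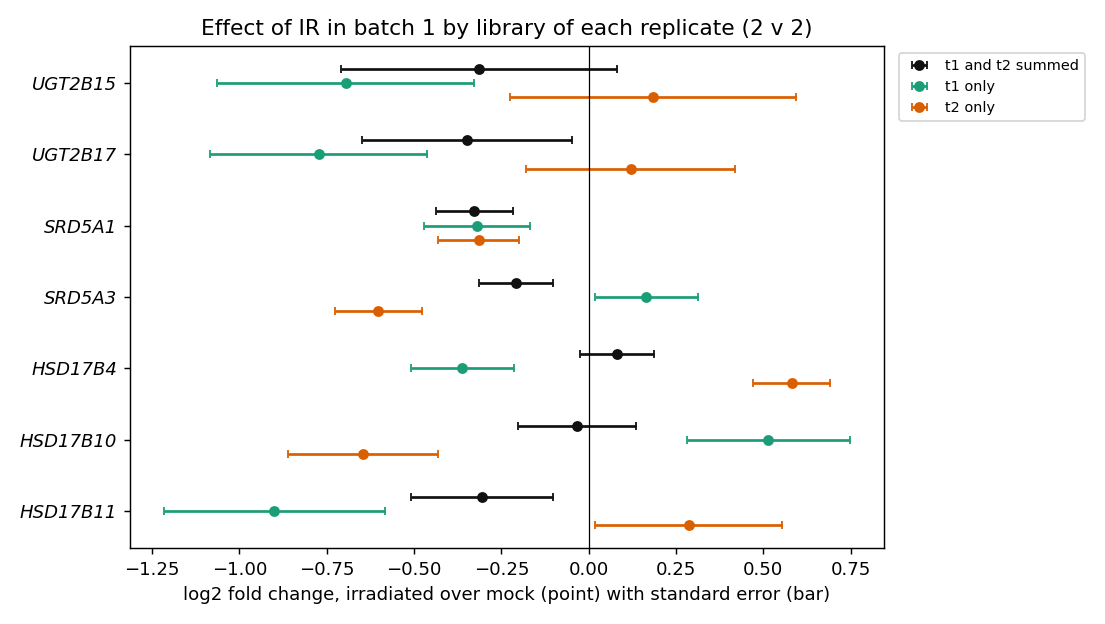
Log2 fold change after IR in batch 1 (x axis; points, with standard errors as bars) for the 7 genes tested, from summed libraries (black), t1 alone (green) and t2 alone (orange). SRD5A1 is at -0.33, -0.32 and -0.32, while t1 and t2 lie on opposite sides of 0 for the other 6 genes.

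Leaving out 1 replicate of batch 1 moved the UGT2B values most. Without mock replicate 1, the log2 fold change was -0.84 for UGT2B15, -0.72 for UGT2B17 and -0.42 for SRD5A1. Without mock replicate 2, the log2 fold change of UGT2B15 was 0.63. Without irradiated replicate 2, it was -1.011 for UGT2B15 and -0.89 for UGT2B17. Each of these fits left 1 replicate in a group. In mock cells replicate 1 was at 0.359 of replicate 2 for UGT2B15 and at 0.528 for UGT2B17, and after IR at 0.463 and 0.538. The UGT2B values of batch 1 therefore rest on which replicates are compared.

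With vehicle and batch 1 fitted together, 0 of 8 genes passed after IR, where 4.05% of all genes did, with 4 of 8 at an unadjusted p under 0.05, beside 16.1% of all genes, and 0 called by DESeq2. The log2 fold change was -0.24 for SRD5A1 (SE 0.0808, edgeR adjusted p = 0.127), -0.38 for UGT2B17 (SE 0.161, edgeR adjusted p = 0.238), -0.38 for UGT2B15 (SE 0.213, edgeR adjusted p = 0.395), -0.18 for SRD5A3 (SE 0.0732, edgeR adjusted p = 0.229) and -0.27 for HSD17B11 (SE 0.121, edgeR adjusted p = 0.269). This fit held no replicate block, and batch 1 has only 1 pair of groups to check its replicate numbers. With the block 2 of 8 genes passed, where 1954 of 29195 genes did, as given in the closing section. With t1 and t2 summed, no difference between batches in the response to IR was detected by edgeR (0 of 8 called and 0 at an unadjusted p under 0.05, DESeq2 0, against 0.106% of all genes called). With t2 alone HSD17B4 (0.59, edgeR adjusted p = 0.0083) and SRD5A3 (-0.47, edgeR adjusted p = 0.044) passed, where 20.3% of all genes did. The interval of that difference was wide for UGT2B15 (-0.86 to 1.02 on the log2 scale) and narrower for HSD17B4 (-0.24 to 0.35).

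No change with 90 min of enzalutamide was detected in the 8 genes tested. Without IR, 0 of 8 tested genes passed, where 0.0105% of all genes did. With IR, again 0 of 8 passed, where again 0.0105% did. At an unadjusted p under 0.05 there were 0 of 8 in each, and DESeq2 called 0. With the block, 0 of 8 passed in each, where 0.192% of all genes did without IR and 0.192% with IR.

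Averaged over IR (4 against 4), the log2 fold change with enzalutamide was -0.03 for UGT2B15 (95% interval -0.26 to 0.21) and -0.17 for UGT2B17 (95% interval -0.46 to 0.11). This averaged fit includes irradiated cells. Without IR (2 against 2), the 4 UGT2B genes summed had a 95% interval of -0.44 to 0.25. In the averaged fit, a rise of either gene by more than 0.21 on the log2 scale lay outside both intervals. TMPRSS2, an androgen-induced protease gene, fell by 0.58 in the same fit (SE 0.0622, edgeR adjusted p = 0.00123). FKBP5, an androgen-induced co-chaperone gene, was at -0.26 (SE 0.0546, edgeR adjusted p = 0.22) and KLK3 at -0.66 (SE 0.212, edgeR adjusted p = 0.69).

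HSD17B4 was lower with enzalutamide in 4 of 4 pairs of same-numbered replicates, as 8.74% of all genes were, by -0.13 on the log2 scale (95% interval -0.25 to -0.01, SE 0.0556, edgeR adjusted p = 0.775). HSD17B10 was higher in 4 of 4 pairs, as 11.8% of all genes were, by 0.15 (95% interval -0.10 to 0.39, SE 0.114, edgeR adjusted p = 0.89). Neither passed the test. SRD5A1 was at 0.07 (95% interval -0.08 to 0.22), SRD5A3 at 0.04 (-0.11 to 0.19) and HSD17B11 at 0.01 (-0.20 to 0.23). In all, 0 of 8 genes passed, where 0.0628% of all genes did, with 1 of 8 at an unadjusted p under 0.05, beside 6.21% of all genes, and 0 called by DESeq2, and 0 of 8 passed with the block, where 0.949% did.

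**Figure D5:**
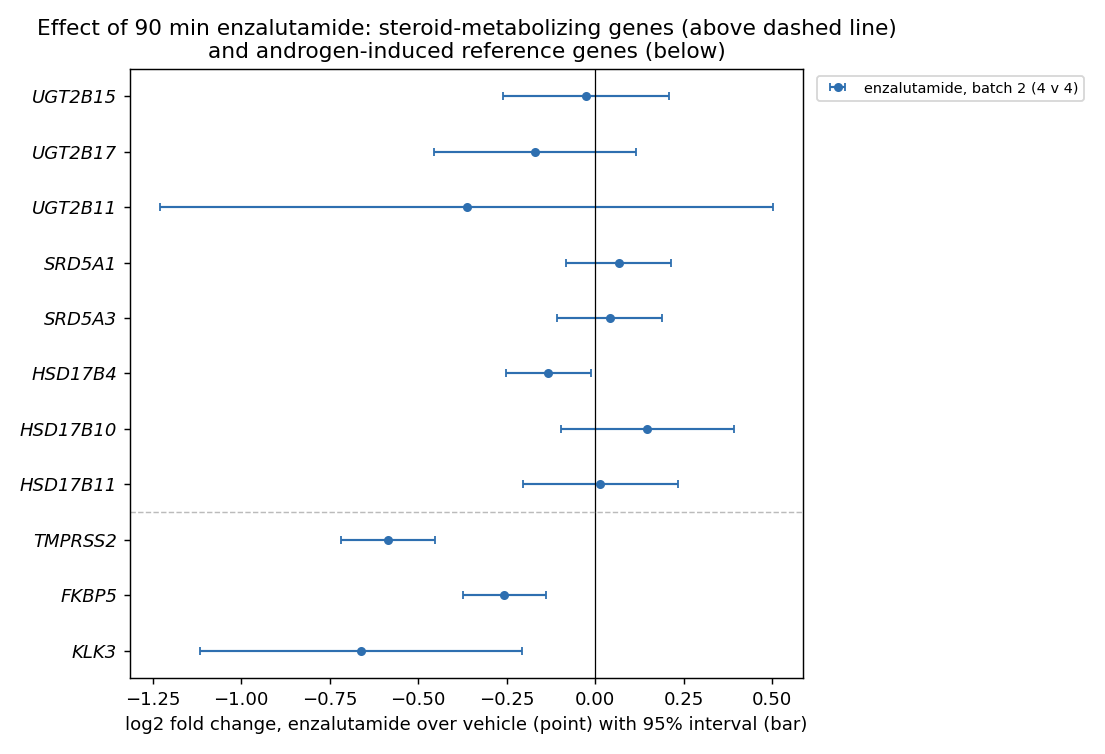
Log2 fold change with enzalutamide averaged over IR (x axis; points, with 95% intervals as bars) for the 8 tested genes (above the dashed line) and 3 androgen-induced reference genes (below it). TMPRSS2 (-0.58) passed the test, and the 8 genes lie between -0.36 (UGT2B11) and 0.15 (HSD17B10) without passing.

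Cells given enzalutamide and IR together were compared with vehicle cells. UGT2B17 was at 0.655 of its vehicle level (95% interval 0.486 to 0.882, edgeR adjusted p = 0.15), UGT2B15 at 0.717 (95% interval 0.56 to 0.919, edgeR adjusted p = 0.17) and HSD17B11 at 0.811 (95% interval 0.644 to 1.02, edgeR adjusted p = 0.338). By edgeR 0 of 8 genes passed, where 1.52% of all genes did, with 2 of 8 at an unadjusted p under 0.05, beside 17.2% of all genes, and 0 called by DESeq2. With the replicate block UGT2B17 fell by 0.61 (SE 0.1, edgeR adjusted p = 1.72e-04) and UGT2B15 by 0.48 (SE 0.137, edgeR adjusted p = 0.0242), where 11.2% of all genes passed. This comparison shares its vehicle cells with that of IR in vehicle cells, and its irradiated cells with that of IR in enzalutamide cells.

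The effect of IR did not differ detectably with enzalutamide. The interaction was -0.07 for UGT2B15 (95% interval -0.57 to 0.44), -0.09 for UGT2B17 (-0.69 to 0.52), -0.15 for HSD17B11 (-0.62 to 0.32) and 0.17 for SRD5A3 (-0.14 to 0.47), on the log2 scale. By edgeR 0 of 8 genes passed and 0 had an unadjusted p under 0.05, and over all genes 0% passed, DESeq2 called 0, and 343 had an unadjusted p under 0.05 by edgeR. With the block 0 of 8 passed, where 0.00349% of all genes did (1 gene).

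Levels of several genes differed between the batches, in which batch, treatment and culture cannot be told apart, so no test was made. UGT2B17 was 3.46-fold higher in the vehicle cells of batch 2 (40.02 ± 5.58 CPM, SD, n = 2) than in the mock cells of batch 1 (11.58 ± 5.05 CPM, SD, n = 2), and 1.23% of genes had a lower ratio of mock to vehicle. UGT2B15 was 1.81-fold higher in batch 2, with overlap between the replicates of the batches, HSD17B11 1.62-fold and HSD17B4 1.28-fold. For UGT2B17, HSD17B11 and HSD17B4 every replicate of batch 1 was below every one of batch 2, as for 23.4% of all genes. HSD17B10 was 1.67-fold higher in batch 1, and all of its batch 1 replicates were above those of batch 2, which also holds for 23.4% of all genes. SRD5A1 and SRD5A3 were at 0.939 and 0.869 of their mock level in the vehicle cells. The 4 hepatocyte markers summed to 13.7 to 17.7 CPM in batch 1 and 5.93 to 10 CPM in batch 2, against the direction of UGT2B17. APOA1 and TTR made up most of these sums, with ALB and SERPINA1 between 0.2045 and 2.511 CPM in every replicate, and their part in the batch levels was not tested.

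A list of 51 other genes of androgen metabolism was set beside these. Of its members, 40 passed the filter in batch 2 and 37 in batch 1, and none fell past the threshold in any comparison. FDXR, a mitochondrial reductase that supplies electrons for steroid synthesis and is a known p53 target, rose after IR by 2.85 on the log2 scale in vehicle cells (SE 0.112, edgeR adjusted p = 3.43e-08), by 2.88 in enzalutamide cells (SE 0.114, edgeR adjusted p = 3.61e-08) and by 3.08 in batch 1 (SE 0.14, edgeR adjusted p = 2.22e-07). HSD17B7, an enzyme of cholesterol and estradiol synthesis, rose by 1.15 in batch 1 (SE 0.147, edgeR adjusted p = 4.91e-04) and was at 0.23 in vehicle cells (SE 0.102, edgeR adjusted p = 0.434), and this difference between batches did not pass (0.90, SE 0.187, edgeR adjusted p = 0.103). HSD3B7, an enzyme of bile acid synthesis, rose by 0.44 averaged over enzalutamide (SE 0.117, edgeR adjusted p = 0.0492). With enzalutamide averaged over IR, 0 of 40 passed and 1 of 40 had an unadjusted p under 0.05.

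The list's highest counts per kb of span belonged to RDH11, a retinol dehydrogenase known to be androgen-induced in prostate (130 counts per kb on average over the 12 replicates), FDXR (92.8) and HSD17B1, which makes estradiol (83.1). Averaged over enzalutamide, RDH11 was at 0.15 after IR (SE 0.0548, edgeR adjusted p = 0.137) and HSD17B1 at -0.08 (SE 0.151, edgeR adjusted p = 0.815). The median of the 40 genes after IR averaged over enzalutamide was -0.09, beside -0.20 for the 8 genes tested and -0.0136 over all genes. Among 13 other entries with UGT2B or SRD5A symbols, 5 passed the filter in batch 2 and none passed the test in any comparison. These entries are paralogs, pseudogenes and the long noncoding RNA gene SRD5A3-AS1. Of the 5, UGT2B4, UGT2B7 and SRD5A2 are also in the list above. Mean counts per replicate were low for UGT2B4 (11.5), UGT2B27P (12.4), SRD5A2 (16.4) and UGT2B7 (33.4), and 145 for SRD5A3-AS1. The median of these 5 after IR averaged over enzalutamide was -0.48, with 0 called and 2 at an unadjusted p under 0.05, beside 21.8% of all genes. UGT2B27P (16.9 counts per kb), SRD5A3-AS1 (7.65) and UGT2B29P (6.08) had the most counts per kb.

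Some of the genes adjoin or overlap others, and the use of strand in counting is not given in the sources used here, so reads of such partners may be shared. SRD5A1 (chr5:6633440-6674386 on GRCh38.p14) starts 395 bases from the RNA methyltransferase gene NSUN2, which was at 0.08 after IR averaged over enzalutamide (SE 0.0595, edgeR adjusted p = 0.436) and at 0.13 in batch 1 (SE 0.103, edgeR adjusted p = 0.713), where SRD5A1 was lower. HSD17B10 (chrX:53431258-53434376) lies 142 bases from RIBC1, which was at 0.02 with enzalutamide averaged over IR (SE 0.154, edgeR adjusted p = 0.993). SRD5A3 (chr4:55346242-55373100) overlaps SRD5A3-AS1, at 0.13 after IR averaged over enzalutamide (SE 0.116, edgeR adjusted p = 0.555). HSD17B11 (chr4:87336515-87391188) lies 13632 bases from its relative HSD17B13, at -0.37 after IR averaged over enzalutamide (SE 0.195, edgeR adjusted p = 0.286). The remaining genes are at chr4:68646597-68670652 (UGT2B15), chr4:68537173-68576322 (UGT2B17), chr4:69199951-69224984 (UGT2B11), chr4:69280475-69295050 (UGT2B28) and chr5:119452497-119542332 (HSD17B4).

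Over the 12 replicates, each centred on its batch mean, UGT2B15 and UGT2B17 varied together (Pearson r = 0.918 of log2 CPM, a description), which reads shared between them would also raise. SRD5A1 and SRD5A3 had r = 0.703, and HSD17B4 and SRD5A3 r = -0.488. Among 18685 other genes with a mean of at least 50 counts, those most like UGT2B17 were SESN3 (r = 0.969), ENSG00000243081 (0.967) and MYRIP (0.963), and those most like UGT2B15 were TENM2 (0.957), PIK3CB (0.953) and MAGI1 (0.944). HSD17B11 was most like TUBA1C (0.976), NMU (0.975) and CDKN3 (0.971), SRD5A1 most like NDUFC2 (0.949), and SRD5A3 most like COQ5 (0.875). Among the 3 genes most like HSD17B4 were NEO1 (0.904) and SCMH1 (0.903), and HSD17B10 was most like ENSG00000250057 (0.914). These correlations share treatments, libraries and depth between the genes.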

How the data were processed

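PRO-seq was made from LNCaP cells in 16 libraries of 2 batches. The authors deposited 1 table per batch of read counts per Ensembl gene identifier. They were taken as raw because each library has its own total and all values are whole. Per the submitters' processing notes, cutadapt 1.8.1, Bowtie2 2.4.4, SAMtools 1.9 and genome build hg38 were used. The counting tool, annotation, use of strand and handling of multi-mapped reads are not given in the sources used here. Identifiers were matched to symbols by a names table (60463 of 60605).

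Counts of t1 and t2 of a replicate were summed. Genes were kept by filterByExpr, scaled by TMM and tested with edgeR 4.0.16 (glmQLFit, glmQLFTest) in R 4.3.3, two-sided, with Benjamini-Hochberg adjustment over all genes tested and a threshold of 0.05. Batch 2 was 1 model of IR, enzalutamide and their interaction, and averaged effects came from the model without it. The fit of both batches held mock, IR, vehicle and vehicle with IR cells and a batch term. SEs were derived from the F statistic. CPM are TMM-scaled within a batch. Alternatives were size factors, total counts, no filter, DESeq2 1.42.0, a replicate block, leaving out each replicate, t1 or t2 alone, only the groups compared, and summed UGT2B genes. The steps were tested on simulated data.

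Within a batch, groups have the same replicate numbers. Replicate differences of the 6 pairs of groups in batch 2 correlated across 24711 genes (r between 0.147 and 0.348), so the numbers were taken as pairing there, from the labels' numbers and this check. Batch 1 has 1 pair of groups (r = 0.211).

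The genes, the lists and the comparisons were chosen with earlier results of these data known, and IR averaged over enzalutamide was added after seeing the data. Named were the 9 genes, listed genes past the threshold in any comparison, the 3 with the highest count per kb, a reference panel, adjoining genes that bear on a member, and the 3 genes most like each member, of which the text gives 1 to 3. Some genes of the panel and of the last group are not reported here.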

Additional observations from a re-analysis of the deposited data

How the results depend on the processing

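For the 87 values of a gene in a comparison, 1231 alternatives were computed. Of these, 1192 stayed on the same side of the threshold, 29 passed it where the reported value had not, 6 no longer passed it (all UGT2B15 after IR averaged over enzalutamide, each with 1 replicate left out) and 4 were reversed. Among the 1192, 100 changed sign between values with an unadjusted p of at least 0.05 in both settings. The reversed values were UGT2B15 without mock replicate 2 (0.63 in batch 1, where leaving out 1 replicate gave -1.011 to 0.63) and, with t1 alone, HSD17B4 (-0.36 in batch 1, -0.39 for the difference between batches) and HSD17B10 (0.51 in batch 1). The cause was not tested.

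The number of genes called was 0 in each planned comparison and changed with the settings given here. With the replicate block it was 1 for IR in vehicle cells, 1 for IR in enzalutamide cells, 2 for both treatments together and 3 for IR averaged over enzalutamide. In batch 1 it was 1 with the block (SRD5A1, -0.33, edgeR adjusted p = 0.00847), where 2332 of 25889 genes passed. In both batches it was 2 with the block (UGT2B17, edgeR adjusted p = 0.00412, and UGT2B15, 0.0406), where 1954 of 29195 genes passed. The block changed no other call. Without the filter it was 1 for IR in enzalutamide cells, where 556 of 54974 genes passed, and 1 for both treatments together, where 1278 did. For the averaged IR effect it was 2 without the filter, where 2391 genes passed, and 2 with DESeq2, where 1459 of 28651 did. With t2 alone it was 4 in batch 1 and 2 for the difference between batches. With 1 replicate left out it was 0 to 1 for IR in enzalutamide cells (UGT2B17, -0.76 without enzalutamide replicate 4), 0 to 1 for both together (UGT2B17, without either enzalutamide replicate), 0 to 3 in batch 1, 0 to 1 in both batches (SRD5A1, -0.31 without vehicle with IR replicate 3) and 0 to 2 for the averaged effect, which was 1. A lone sample left in a group is then assumed to vary like the others.

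Counts over all genes moved more: from 314 to 1315 with the block for IR in vehicle cells (161 to 511 with 1 replicate left out), 263 to 951 in enzalutamide cells (139 to 434), 435 to 3205 for both together (157 to 1143), 18 to 272 for averaged enzalutamide (7 to 36), 1349 to 4307 for averaged IR (611 to 1677), and 1182 to 1954 in both batches (657 with t2 alone). Without the filter they moved from 3 to 74 and from 3 to 64 for enzalutamide without and with IR (2 to 10 and 1 to 6 with 1 replicate left out), and from 0 to 32 for the interaction. With t2 alone they moved from 731 to 9800 in batch 1 (587 to 1509 with 1 replicate left out) and from 31 to 5646 for the difference between batches (21 to 45). Depth limits UGT2B11 and UGT2B28 most.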
